A study of Mus musculus with 8 samples.

Results

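The mRNAs of 10 proteins of the cytotoxic granule were examined in CD8+ T cells and NK cells from *Tyk2*-/- mice. The 10 genes were given by name, with no threshold on their counts. They are the granzyme genes *Gzma*, *Gzmb*, *Gzmc*, *Gzmk* and *Gzmm*, the pore gene *Prf1*, the storage proteoglycan gene *Srgn*, the cathepsin gene *Ctsw* and the granule membrane genes *Nkg7* and *Lamp1*. All 10 were among the 54232 gene IDs of the count table, and all 10 passed the filter on low counts. RNA-seq was made from spleen cells sorted by FACS from mice aged 8 to 12 weeks, kept under homeostatic conditions with no treatment. Per the labels the strain was C57BL/6 (C57BL/6N in the study's methods) and the genotype a *Tyk2* knockout, which both groups share. Per the study's methods the knockout was the allele *Tyk2*tm1Biat, in a line with or without a CMV-cre transgene, and which line gave these mice was not stated. Each group held 3 libraries, each a pool of spleens from 3 littermates, so that the spread given here is between pools. No *WT* library was used here, since 3 columns carry the *WT* CD8+ T cell label against 2 listed samples, and therefore no effect of TYK2 on the granule genes was tested. The only comparison was NK cells against CD8+ T cells within the one genotype.

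Cytotoxic lymphocytes kill target cells by releasing the contents of secretory granules, which are related to lysosomes, into the contact zone with the target. Perforin opens the target cell membrane, and granzymes, which are serine proteases, pass through and cleave proteins inside the target. Resting NK cells are known to hold such granules ready, whereas CD8+ T cells build most of theirs only after activation.

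The totals on genes ranged from 20957384 to 26144478 counts in the CD8+ T cell libraries and from 32848432 to 38573550 counts in the NK cell libraries. A count of 3 or fewer in a library was read as not detectable, which corresponds to 0.0778 to 0.143 CPM over the 6 libraries. *Tyk2* itself had 105, 919 and 554 counts in the CD8+ T cell libraries and 3207 to 4245 counts in the NK cell libraries, and these gene-level counts do not check the genotype. The libraries carried the markers of their labels. The 7 NK cell markers summed to 757642 to 884489 normalised counts in NK cells, against 352 to 1534 in CD8+ T cells, with *Ncr1* and *Itga2* at 0 in each CD8+ T cell library. The 7 CD8+ T cell markers summed to 240918 to 276017 in CD8+ T cells, and only to 7935 to 13546 in NK cells, with *Cd8b1* and *Cd6* at 0 in each NK cell library. Library 1 of the CD8+ T cells stood apart in holding 405 counts of the B cell gene *Ms4a1*, against 6 and 0 in libraries 2 and 3. The B cell gene *Cd79a* had 347 counts there, against 17 and 0. *Cd79b*, another, was in each CD8+ T cell library (5739, 4725 and 941 normalised counts) and reached 1519 in NK cell library 2. Quality measures differed between the cell types as well, with 2.45% to 4.65% of counts on mitochondrial genes in CD8+ T cells against 1.47% to 1.6% in NK cells, 24.2% to 29.0% against 37.9% to 40.8% on the top 100 genes, and 12893 to 14042 against 17224 to 17373 genes with a count. Their part in the differences below was not tested.

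The sequences upstream of 4 members are shown because they stand for the patterns described below. *Gzma* was the most abundant member in NK cells, *Gzmb* and *Prf1* are the textbook pair of the lytic granule, and *Gzmk* was a granzyme whose libraries overlapped between the cell types. Each run is the 250 bases before the RefSeq transcript start in GRCm38.p6, written 5′ to 3′ along the gene's own strand, and lies at chr13:113100982-113101231 for *Gzma*, chr14:56262335-56262584 for *Gzmb*, chr10:61297586-61297835 for *Prf1* and chr13:113180966-113181215 for *Gzmk*. *Prf1* is on the plus strand and the others are on the minus strand. Capitals mark matches on either strand to a RUNX motif (TGTGGT or TGCGGT), a T-box motif (TCACAC), an AP-1 motif (TGANTCA), a CRE motif (TGACGTCA), an ETS motif (GGAAGT) and a STAT motif (TTCNNNGAA).
Gzma: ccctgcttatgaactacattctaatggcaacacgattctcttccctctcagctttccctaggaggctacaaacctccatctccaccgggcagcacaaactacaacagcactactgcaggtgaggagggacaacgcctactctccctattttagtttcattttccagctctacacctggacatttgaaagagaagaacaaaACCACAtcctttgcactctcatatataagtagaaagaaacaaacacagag
Gzmb: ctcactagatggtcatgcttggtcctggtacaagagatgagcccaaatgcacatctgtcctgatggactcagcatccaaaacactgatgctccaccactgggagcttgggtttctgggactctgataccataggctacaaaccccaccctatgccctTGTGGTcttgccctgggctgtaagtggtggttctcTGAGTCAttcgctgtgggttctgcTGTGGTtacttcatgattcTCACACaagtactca
Prf1: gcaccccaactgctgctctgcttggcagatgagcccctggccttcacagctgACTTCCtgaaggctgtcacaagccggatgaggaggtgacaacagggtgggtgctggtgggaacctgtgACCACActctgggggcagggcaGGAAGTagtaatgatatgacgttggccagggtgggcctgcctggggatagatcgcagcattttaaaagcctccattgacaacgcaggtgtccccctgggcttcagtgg
Gzmk: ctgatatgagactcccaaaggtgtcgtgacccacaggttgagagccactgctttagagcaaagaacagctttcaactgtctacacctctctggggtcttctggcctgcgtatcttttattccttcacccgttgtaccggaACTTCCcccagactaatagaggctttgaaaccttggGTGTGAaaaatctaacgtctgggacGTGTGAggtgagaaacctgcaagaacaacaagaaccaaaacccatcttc
RefSeq gave a promoter for 9 of the 10 members, all but *Ctsw*. A RUNX motif was found in 7 of these 9 windows, namely all but *Gzmk* and *Srgn*, against 18.6% of 32841 RefSeq promoters of the same length. An ETS motif was found in 4 of 9 (*Gzmc*, *Gzmk*, *Prf1* and *Srgn*), against 19.7% of all promoters, and a T-box motif in 3 of 9 (*Gzmb*, *Gzmk* and *Nkg7*), against 12.3%. The STAT motif was found for *Gzmm* and *Nkg7*, 2 of 9 against 7.02% of promoters, the AP-1 motif for *Gzmb* alone (6.75%) and the CRE motif for *Gzmc* alone (1.55%). These matches are letters in a window and not measured binding sites. In *Gzmb* the T-box match at bases -15 to -10 lies closest to the RefSeq start. RUNX matches follow at -34 to -29 and -93 to -88, with the AP-1 match between them at -58 to -52. This RefSeq start lies 74 bases upstream of the start of *Gzmb* in GENCODE. The promoter window of *Gzmk* lies inside the annotated gene, 44943 bases from the outermost start in GENCODE.

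As a group, the granule genes were far more abundant in NK cells. They took 5.99%, 6.30% and 7.04% of all counts on genes in the NK cell libraries and 0.567%, 0.713% and 0.523% in the CD8+ T cell libraries. Each NK cell library was thus above each CD8+ T cell library. The mean share of the NK cells was 6.44% ± 0.536 (SD, n = 3) and that of the CD8+ T cells 0.601% ± 0.0993 (SD, n = 3), a ratio of 10.7 (two-sided exact permutation test, p = 0.1, which is the smallest p that 3 libraries against 3 allow). The counting error of these shares was small, with exact 95% binomial intervals of at most 0.00820 percentage points to either side. In NK cells the share was carried by *Gzma*, *Nkg7* and *Ctsw*, and in CD8+ T cells by *Nkg7*. Without *Gzma* and *Gzmb* the members held 2.96% of the counts of NK cells and 0.598% of those of CD8+ T cells. In bulk RNA, fewer cells that express a gene and less of its RNA per cell cannot be told apart, and this holds for each difference below.

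**Figure D1:**
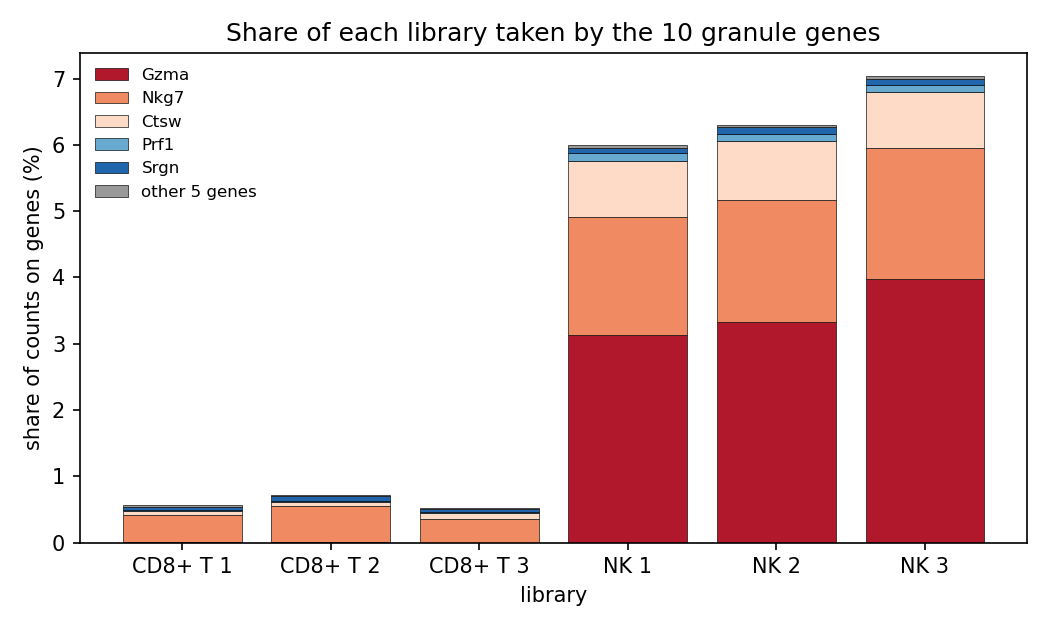
Share of all counts on genes (%) taken by the granule genes in each library, stacked by gene, with the 5 least abundant ones joined in grey. The 3 NK cell libraries reach 5.99% to 7.04%, mostly *Gzma*, *Nkg7* and *Ctsw*, and the 3 CD8+ T cell libraries stay between 0.523% and 0.713%, mostly *Nkg7*.

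Gene by gene, edgeR's quasi-likelihood test, with p-values adjusted by Benjamini and Hochberg's method over 14062 genes, called 6 of the 10 members higher in NK cells (*Gzma*, *Gzmc*, *Prf1*, *Srgn*, *Ctsw* and *Nkg7*) and none higher in CD8+ T cells. Of all genes tested, 6.24% were called in the direction of NK cells and 5.14% in that of CD8+ T cells. At an unadjusted p below 0.05 the count of members higher in CD8+ T cells was 0 as well. DESeq2's Wald test called 0 members in that direction and 8 in the other, beside 1597 and 2132 of the 13910 genes it tested. For 8 members each NK cell library lay above each CD8+ T cell library, the exceptions being *Gzmk* and *Lamp1*, while this held for 25.5% of all genes tested. The median log2 fold change, NK cells over CD8+ T cells, was 3.55 over the members and 0.10 over all genes tested. Without any one NK cell library, edgeR called 3 members, namely *Prf1*, *Ctsw* and *Nkg7*. Over all genes it then made 236 to 239 calls toward NK cells, against 877 with all 6 libraries. Without CD8+ T cell library 1, which held these counts of B cell genes, it called 6 members, with *Gzmb* and *Gzmm* in place of *Gzma* and *Srgn*. Over all genes there were then 996 calls toward NK cells.

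**Figure D2:**
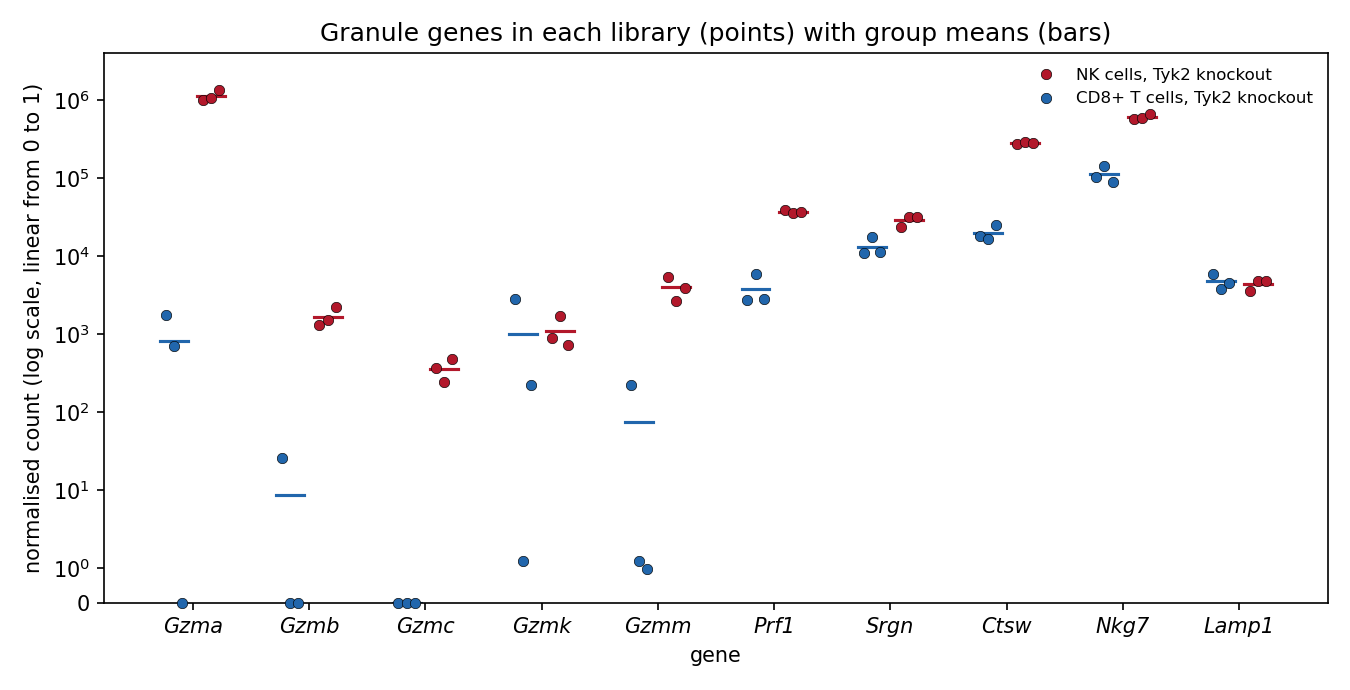
Normalised counts of the 10 granule genes in each library (log axis, linear from 0 to 1), with points for libraries and bars for the means of 3 libraries of NK cells (red) or CD8+ T cells (blue). The groups are apart for 8 genes and overlap for *Gzmk* and *Lamp1*, and the CD8+ T cell points of *Gzma*, *Gzmb*, *Gzmk* and *Gzmm* are widely scattered, down to 0 for *Gzma* and *Gzmb*.

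Among the proteases, *Gzma* (ENSMUSG00000023132, chr13:113093825-113100981 of GRCm38, minus strand) encodes granzyme A, a trypsin-like granzyme. It had 1001491, 1074508 and 1337229 normalised counts in the NK cell libraries and 1728, 697 and 0 in the CD8+ T cell libraries. The groups did not overlap, and *Gzma* was second among all genes by count in each NK cell library. NK cells averaged 1137743 ± 176576 (SD, n = 3) and CD8+ T cells 808 ± 869 (SD, n = 3), a ratio of 1408 (log2 fold change 10.46 ± 2.18 SE, edgeR adjusted p = 0.0306). The adjusted p of *Gzma* was above 0.05 in 5 of the 6 fits that left out one library, all but the one without CD8+ T cell library 3, reaching up to 0.0979, while the log2 fold change stayed between 9.89 and 11.66.

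*Gzmb* (ENSMUSG00000015437, chr14:56258838-56262260, minus strand) encodes granzyme B, which cleaves after aspartate and activates caspases in the target. It had 1296, 1497 and 2211 normalised counts in the NK cell libraries and 25.7, 0 and 0 in the CD8+ T cell libraries. The groups were apart, yet the difference was not called (log2 fold change 7.60 ± 1.96 SE, edgeR adjusted p = 0.055). All of the counts of *Gzmb* in CD8+ T cells came from library 1, without which it was called (adjusted p = 0.00473 with edgeR). The fitted log2 fold change was then 13.76, which is against 0 counts and no measured fold. The mRNA of *Gzmb* was scarce in NK cells beside that of *Gzma*, as the length comparison below shows.

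*Gzmc* (ENSMUSG00000079186, chr14:56231441-56234656, minus strand) encodes granzyme C, a close relative of granzyme B. It had 363, 245 and 473 normalised counts in the NK cell libraries and none in the CD8+ T cell libraries. Against the floor of 3 counts per library *Gzmc* was at least 105.5-fold higher in NK cells (edgeR adjusted p = 0.0235). Its call was lost without any one of the NK cell libraries, with adjusted p of 0.107 to 0.131.

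*Gzmm* (ENSMUSG00000054206, chr10:79689020-79695261, plus strand) encodes granzyme M, which cleaves after methionine or leucine. It had 5317, 2633 and 3882 normalised counts in the NK cell libraries and 224, 1.23 and 0.968 in the CD8+ T cell libraries. As with *Gzmb*, the groups did not overlap and library 1 held nearly all of the CD8+ T cell counts. The difference was not called over the 6 libraries (log2 fold change 5.71 ± 1.96 SE, edgeR adjusted p = 0.106). Without CD8+ T cell library 1 the fitted log2 fold change of *Gzmm* was 11.69, against CD8+ T cells at 1 count per library, with an edgeR adjusted p of 0.00158.

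*Gzmk* (ENSMUSG00000042385, chr13:113171608-113225908, minus strand) encodes granzyme K, a trypsin-like granzyme that neighbours *Gzma*. It had 883, 1711 and 716 normalised counts in the NK cell libraries and 2765, 1.23 and 219 in the CD8+ T cell libraries. CD8+ T cell library 1 was above each NK cell library and library 2 was at the level of 1 read, so that the groups overlapped. No difference was called for *Gzmk* (log2 fold change 0.15 ± 1.74 SE, edgeR adjusted p = 0.971), but the 95% interval of -4.02 to 4.32 is too wide to show that the cell types were alike. The sign of this estimate turned when CD8+ T cell library 2 or 3 or NK cell library 2 was left out.

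**Figure D3:**
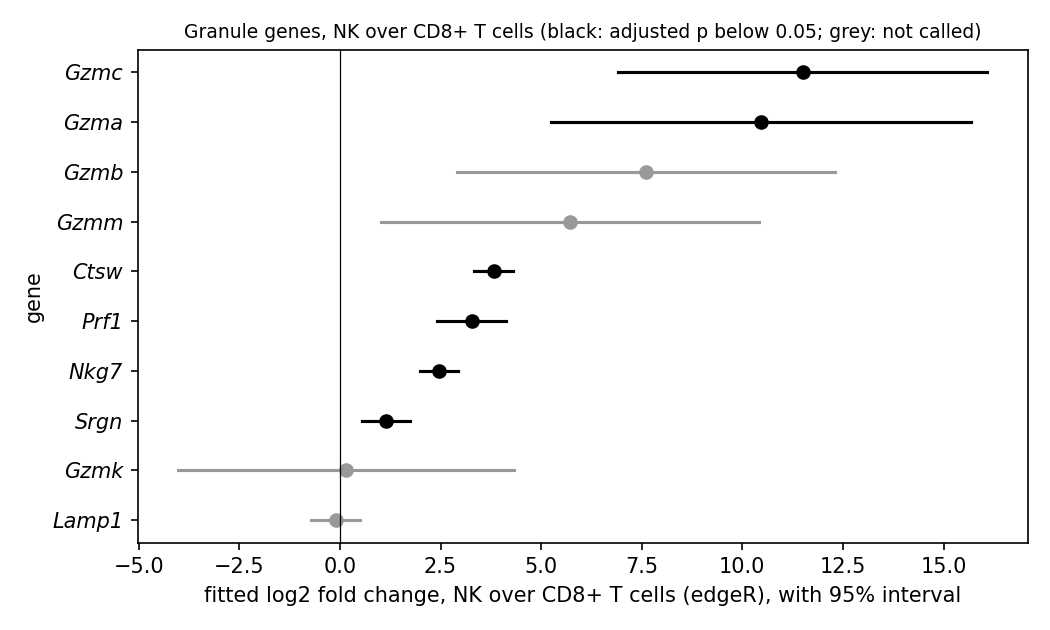
Fitted log2 fold changes of the 10 granule genes (NK over CD8+ T cells, 3 libraries each, edgeR) with 95% intervals, black where the adjusted p was below 0.05. The narrow intervals of *Ctsw*, *Prf1*, *Nkg7* and *Srgn* lie above 0, those of *Gzmc*, *Gzma*, *Gzmb* and *Gzmm* are wide, and those of *Gzmk* and *Lamp1* cross 0; the value of *Gzmc* is fitted against 0 counts and is no measured fold.

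*Prf1* (ENSMUSG00000037202, chr10:61297833-61304680, plus strand) encodes perforin, the pore-forming protein. It had 38283, 36056 and 36518 normalised counts in the NK cell libraries and 2695, 5937 and 2779 in the CD8+ T cell libraries. The NK cell libraries were nearly level and lay well above the CD8+ T cell libraries, of which library 2 was the highest. *Prf1* was 9.71-fold higher in NK cells (log2 fold change 3.28 ± 0.36 SE, edgeR adjusted p = 0.00321). Its call held in each of the 6 fits without one library, with log2 fold changes of 3.08 to 3.78.

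*Srgn* (ENSMUSG00000020077, chr10:62493833-62527451, minus strand) encodes serglycin, the proteoglycan whose negatively charged chains bind granzymes and perforin in the granule core. It had 23534.5, 31864 and 31947 normalised counts in the NK cell libraries and 10775, 17367 and 11188 in the CD8+ T cell libraries. The groups did not overlap, but the gap was the smallest among the called members, at 2.22-fold (log2 fold change 1.15 ± 0.25 SE, edgeR adjusted p = 0.034). With total counts as the scale the log2 fold change of *Srgn* was 0.80 and no longer called (adjusted p = 0.0691), and 5 of the 6 fits without one library lost the call, with adjusted p of up to 0.137.

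*Ctsw* (ENSMUSG00000024910, chr19:5465043-5468507, minus strand) encodes cathepsin W, a papain-family protein of cytotoxic lymphocytes. It had 271841, 288444 and 282703 normalised counts in the NK cell libraries and 17997.5, 16290.3 and 25132 in the CD8+ T cell libraries. The groups were far apart, with little spread among the NK cell libraries and more among the CD8+ T cell libraries. *Ctsw* was 14.2-fold higher in NK cells and had the smallest adjusted p of the members (log2 fold change 3.83 ± 0.20 SE, edgeR adjusted p = 0.000273).

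*Nkg7* (ENSMUSG00000004612, chr7:43437073-43438249, plus strand) encodes a membrane protein of cytotoxic granules that is needed for their release. It had 569022, 593541 and 666489 normalised counts in the NK cell libraries and 103282, 140412 and 88615 in the CD8+ T cell libraries. *Nkg7* was abundant in both cell types, being in place 5 of all genes by count in each NK cell library and between places 13 and 22 in the CD8+ T cell libraries. It was still 5.50-fold higher in NK cells (log2 fold change 2.46 ± 0.20 SE, edgeR adjusted p = 0.00102). The calls of *Ctsw* and *Nkg7* held in each fit without one library, with adjusted p of at most 0.00459 and 0.01.

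*Lamp1* (ENSMUSG00000031447, chr8:13159161-13175338, plus strand) encodes a membrane protein of lysosomes in all cell types, also known as CD107a, whose appearance on the surface marks the release of granules. It had 3544, 4768 and 4812 normalised counts in the NK cell libraries and 5835, 3818 and 4469 in the CD8+ T cell libraries. The groups overlapped (log2 fold change -0.11 ± 0.26 SE, edgeR adjusted p = 0.823), and the 95% interval of -0.72 to 0.51 does not reach the estimate of 1.15 found for *Srgn*. Exons of *Lamp1* overlap those of *Grtp1* on the opposite strand, where 7.11% of the 50-base windows of the *Lamp1* transcript are found as well. *Grtp1* had 66 to 348 counts in the NK cell libraries and 0 to 13 in the CD8+ T cell libraries, against 3113 to 5692 of *Lamp1*.

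Levels of different members were compared per length, as RPKM, here counts per kilobase of exon and per 1e+06 TMM-scaled counts. In NK cells *Gzma* (RPKM 39125 ± 6072, SD, n = 3) was followed by *Nkg7* (23941 ± 1991) and *Ctsw* (7833 ± 235), and each of these lay above the next in every library. *Srgn* (575 ± 95.4) and *Prf1* (495 ± 15.7) came next and overlapped, then *Gzmm* (106 ± 36.1) and *Lamp1* (67.9 ± 11.2), which overlapped too. The least abundant were *Gzmb* (40.2 ± 11.6), *Gzmk* (28.0 ± 13.5) and *Gzmc* (13.9 ± 4.40), whose neighbours in this order could not be told apart by their libraries. Per length, *Gzma* was thus 974-fold above *Gzmb* in NK cells, with 864 to 1103 in single libraries, and 79.1-fold above *Prf1*. *Prf1* was 12.3-fold above *Gzmb*.

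In CD8+ T cells the order was another. *Nkg7* led with an RPKM of 4350 ± 1048 (SD, n = 3), followed by *Ctsw* (552 ± 131) and *Srgn* (259 ± 72.9), each above the next in every library. *Lamp1* (73.1 ± 16), *Prf1* (50.9 ± 24.7), *Gzma* (27.8 ± 29.9), *Gzmk* (25.2 ± 39.0) and *Gzmm* (2.03 ± 3.46) overlapped from one to the next. *Gzmb* was at 0.206 ± 0.357 and *Gzmc* was not detected. The CD8+ T cells thus carried mRNA of *Nkg7*, *Lamp1*, *Srgn*, *Ctsw* and *Prf1* at readily measured levels in each library. By contrast, *Gzma*, *Gzmb*, *Gzmk* and *Gzmm* were detected in some libraries only and *Gzmc* in none. In library 1, *Gzmk* (RPKM 70.1) and *Gzma* (59.4) lay above *Prf1* (36.1).

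The members differed in how evenly they were expressed. In NK cells their median coefficient of variation was 16.5%, against 33.6% over 12995 genes. Among the members it was lowest for *Ctsw* (3.00%) and *Prf1* (3.18%) and highest for *Gzmk* (48.3%). The genes compared, here and for CD8+ T cells below, were not matched to the members by abundance. Whether the members were more even than genes of like abundance was therefore not tested. In CD8+ T cells the median over the 9 members with counts was 48.6%, against 70.0% over 11635 genes. The median of the members was 31.3% without library 1 and 23.4% without library 2. *Gzmb*, with a mean of 8.56 in CD8+ T cells, is among the 9 but lies below the minimum set for the 11635 genes. *Lamp1*, *Ctsw*, *Nkg7* and *Srgn* varied by 21.9% to 28.2% there and *Prf1* by 48.6%. The 4 granzymes with counts varied by 107.6% (*Gzma*), 154.5% (*Gzmk*), 170.7% (*Gzmm*) and 173.2% (*Gzmb*). The value of *Gzmb*, whose counts came from library 1 alone, is the largest that 3 libraries allow, and that of *Gzmm* lies near it.

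Library 1 of the CD8+ T cells was the highest for each of these 4 granzymes and for *Lamp1*. It was the lowest or intermediate for *Prf1*, *Srgn*, *Nkg7* and *Ctsw*. Relative to the NK cell mean, library 1 held 0.152% for *Gzma*, 1.54% for *Gzmb*, 5.68% for *Gzmm* and 250.7% for *Gzmk*. The 7 NK cell markers in the same library summed to 0.0422% of their NK cell mean, the lowest of the 3 CD8+ T cell libraries, against 0.184% in library 2 and 0.0833% in library 3. In library 2, *Gzma* was at 0.0612% of its NK cell mean, below the markers' 0.184%, and in library 3 it was at 0. The part of NK cell RNA in the granzyme counts of CD8+ T cells was not tested beyond these values.

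*Prf1* was at 7.29%, 16.1% and 7.52% of the NK cell mean in the CD8+ T cell libraries, and *Nkg7* at 16.9%, 23.0% and 14.5%. *Ctsw* was at 6.40%, 5.80% and 8.94% and *Srgn* at 37.0%, 59.7% and 38.4%. These values lie above the share of the NK cell markers in each library, and the part of NK cell RNA in them was not tested. In the other direction, the CD8+ T cell markers summed to 3.08%, 5.26% and 3.79% of their CD8+ T cell mean in the NK cell libraries, with *Cd8b1* at 0.

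**Figure D4:**
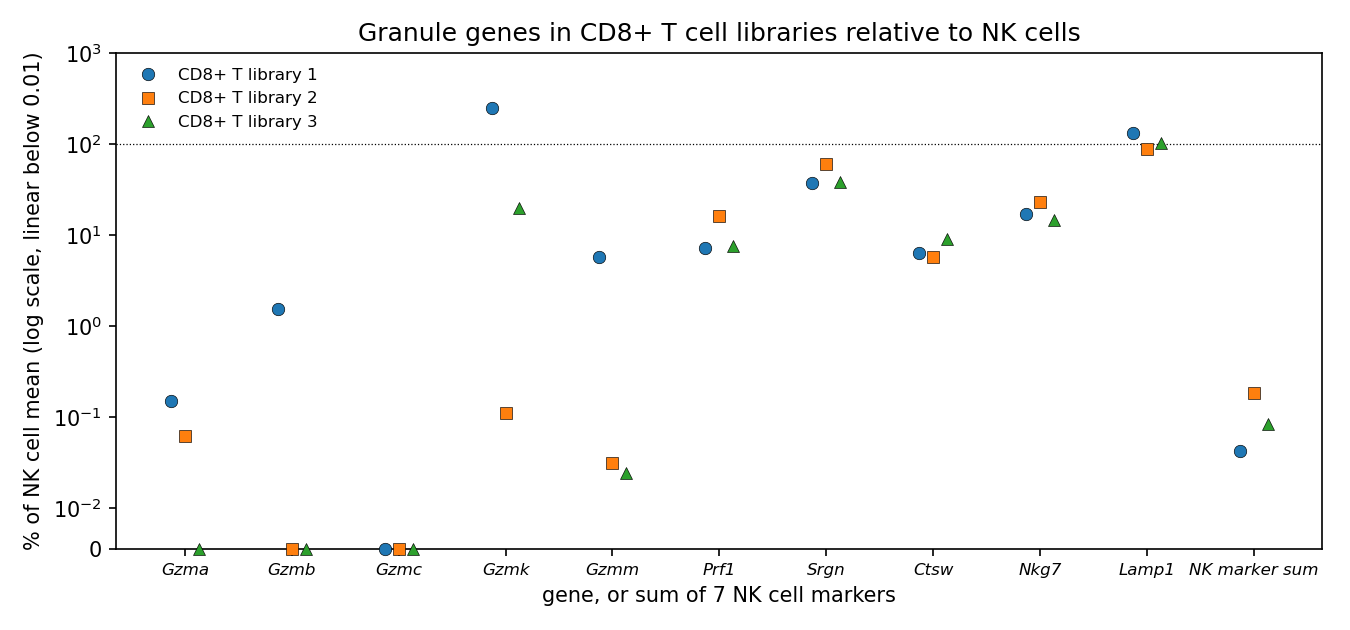
Normalised counts of each granule gene in the 3 CD8+ T cell libraries as a percentage of the mean of 3 NK cell libraries (log axis, linear below 0.01), beside the sum of 7 NK cell markers. *Prf1*, *Srgn*, *Ctsw*, *Nkg7* and *Lamp1* lie between 5.80% and 133% in each library, while *Gzma* and *Gzmb* lie at 1.54% or below and the marker sum at 0.184% or below.

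Markers of memory T cells and other lineages were counted beside the granule genes. The 6 genes of memory CD8+ T cells, which NK cells express too, summed to 16937 to 36848 normalised counts in CD8+ T cells, against 1065517 to 1309281 in NK cells. In libraries 1 to 3 of the CD8+ T cells this sum was 36848, 16937 and 28312, most of it *Ccl5* (29625.5, 9881 and 15105). The other memory genes had other orders, *Cd44* being highest in library 2, *Il2rb* in library 1, and *Eomes*, *Cxcr3* and *Ly6c2* in library 3. The part of memory cells in these values was not tested. For other lineages apart from B cells the summed markers were at most 859 normalised counts for macrophages and monocytes and 126 for mast cells and basophils. They were at most 116 for CD4 T cells, 72.0 for plasma cells, 53.6 for erythroid cells and 47.7 for neutrophils. The list for NKT cells, *Zbtb16* and *Cd1d1*, summed to 420.5 to 2835. *Zbtb16* was at 0 in each CD8+ T cell library and at 44.8, 88.0 and 8.09 in the NK cell libraries. This sum is therefore mainly a value of *Cd1d1* and is not read as a sign of NKT cells. The 4 dendritic cell genes reached 2684 to 3798 in NK cells and at most 167 in CD8+ T cells. Most of the sum in NK cells came from *Itgax*, which NK cells express, while *Siglech* gave 394, 0.838 and 156 in libraries 1 to 3.

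*Gzmb* and *Gzmc* lie at one end of a cluster of serine protease genes on chromosome 14. *Gzmd*, *Gzme*, *Gzmf*, *Gzmg* and *Gzmn*, which lie beside *Gzmc* in the cluster, had 0 counts in all 6 libraries and were not tested. The cathepsin gene *Ctsg*, the chymase gene *Cma2* and the mast cell protease genes *Mcpt1*, *Mcpt2*, *Mcpt4*, *Mcpt8* and *Mcpt9* were at 0 as well. The exception was *Cma1* at the far end of the cluster (chr14:55941451-55944675, minus strand), which encodes mast cell chymase and was singled out after its values were seen. *Cma1* had 32485, 36625 and 52491 counts in the NK cell libraries and none in CD8+ T cells (edgeR adjusted p = 0.000396), while the mast cell genes *Ms4a2*, *Mcpt4* and *Mcpt8* were at 0 in all 6 libraries and *Cpa3*, the fourth of the mast cell and basophil markers, had 48, 54 and 12 counts in NK cells and 1, 103 and 18 in CD8+ T cells. At these depths a count of 0 allows up to 0.0778 to 0.143 CPM. The authors kept uniquely aligned reads only, and 5.75% to 21.9% of the 50-base windows in the transcripts of these 5 granzymes occur in another gene too, so that most of their length could have been counted. *Gzmd* and *Gzme* are the most alike, with 94.8% identity over their coding sequences.

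**Figure D5:**
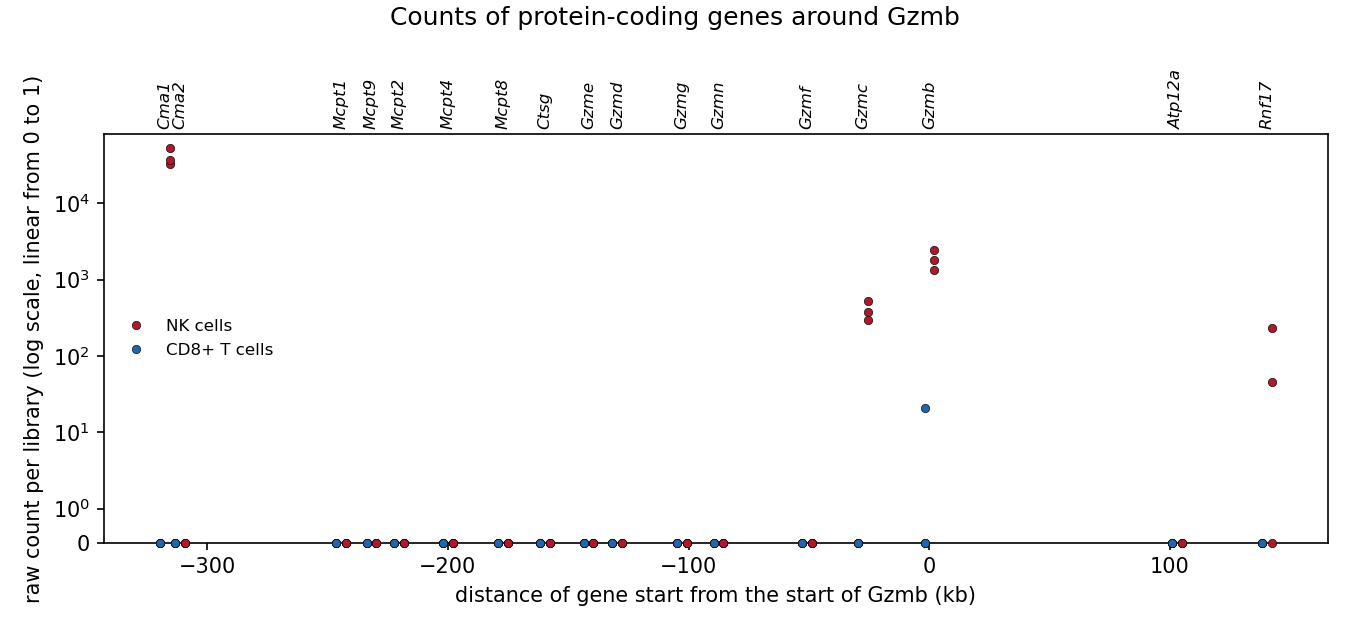
Raw counts per library (log axis, linear from 0 to 1) of the protein-coding genes around *Gzmb*, placed by the distance of their starts from that of *Gzmb* in kilobases. Red points are the 3 NK cell libraries and blue points the 3 CD8+ T cell libraries; *Gzmb* and *Gzmc* at one end and *Cma1* at the other have counts above 0 in NK cells, the protease genes between them are at 0, and beyond *Gzmb* the gene *Rnf17* has 46, 0 and 235 counts in NK cells.

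Reads of *Gzmb* and *Gzmc* could be told apart at the full length of 50 bases, while reads shortened by trimming were not examined. Their coding sequences are 76.6% identical, and the longest stretch they share is 49 bases, at positions 352 to 400 of the *Gzmb* coding sequence, 1 base short of the read length of 50. It is shown because it is where reads of the 2 genes come closest, and no read of full length lies wholly within it.
Gzmb and Gzmc: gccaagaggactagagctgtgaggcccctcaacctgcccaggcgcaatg
No 50-base window of the *Gzmb* transcript occurs in another gene, and 35 of 845 windows of *Gzmc* (4.14%) occur in *Gzmd*, *Gzme* or *Gzmg*. The transcripts of *Gzma*, *Gzmk*, *Gzmm*, *Prf1*, *Srgn*, *Ctsw* and *Nkg7* share none either. On chromosome 13, *Gzma* and *Gzmk* are neighbours of which only the first was abundant in NK cells, and their coding sequences are 62.2% identical with at most 13 bases in a row. *Cdc20b*, which lies next to *Gzma* on the opposite strand, had 542, 772 and 1137 counts in the NK cell libraries against 0 in the CD8+ T cell libraries. *Gpx8*, inside the span of *Cdc20b*, had 114, 595 and 574 against 0. Both are small beside *Gzma*, which had 1029216, 1282789 and 1487452 counts in the NK cell libraries. The values of *Cdc20b* and *Gpx8* were singled out after they were seen.

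The genes that build, move and control the granule were examined in 5 lists, the first of which is the 5 silent granzymes above. Of the 29 genes tested in the remaining lists, edgeR called 9 with NK cells higher and 1 with CD8+ T cells higher, beside 6.24% and 5.14% of all genes tested. Without any one NK cell library it called 5 in all, beside 476 to 485 calls over all genes, against 1600 with all 6 libraries. The median log2 fold change was 0.16 for processing and storage, 0.22 for transport and secretion, 4.25 for the serpins and 8.16 for the transcription factors (6.67 with the undetected gene at its bound), beside 0.10 over all genes.

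Of 10 genes for the processing and storage of granule proteins, *Cst7* and *Cd63* were called higher in NK cells, *M6pr* was called higher in CD8+ T cells, and 7 were not called. *Cst7* encodes cystatin F, an inhibitor of the cathepsins that mature granzymes, and had 29065, 34078 and 36069 normalised counts in NK cells and 4058, 6841 and 9513 in CD8+ T cells (log2 fold change 2.28 ± 0.33 SE, edgeR adjusted p = 0.00868). *Cd63*, a tetraspanin of lysosomes, was at 49.6, 219 and 311 in NK cells and at 0 in CD8+ T cells (at least 56.5-fold, edgeR adjusted p = 0.0494), a call lost in each fit without one library. *M6pr*, a mannose-6-phosphate receptor that carries enzymes to lysosomes, had 1324, 1313 and 919.7 in NK cells and 3820, 2407 and 2970 in CD8+ T cells (log2 fold change -1.37 ± 0.33 SE, edgeR adjusted p = 0.0434). This call of *M6pr* was lost in 5 of the 6 fits without one library and without the filter on low counts (adjusted p = 0.0676). The members not called in this list include *Ctsc*, the cathepsin that activates granzymes, at 4071 ± 434 (SD, n = 3) in NK cells against 4679 ± 1322 (SD, n = 3) in CD8+ T cells.

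For transport and secretion, 11 of 12 genes were tested and *Vamp7* was not analysed here. *Stx11* and *Vamp8*, which encode fusion proteins of vesicles, were called higher in NK cells and the other 9 were not called. *Stx11* had 1198, 1588 and 1222 normalised counts in NK cells and 0, 0 and 0.968 in CD8+ T cells (edgeR adjusted p = 0.00241), so that it was not detectable in the latter. *Vamp8* had 15207, 16334 and 15009.8 in NK cells and 9895.5, 7767 and 9266 in CD8+ T cells (log2 fold change 0.79 ± 0.17 SE, edgeR adjusted p = 0.0305). On the scale of total counts the log2 fold change of *Vamp8* was 0.44 with an adjusted p of 0.131, and its call was lost without any one NK cell library too, with adjusted p of 0.123 to 0.139. The other 9 had log2 fold changes between -0.80 (*Arl8b*) and 3.27 (*Vamp2*).

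Of the 4 serpin genes listed, *Serpinb9* and *Serpinb9b* were called higher in NK cells. *Serpinb9*, an inhibitor of granzyme B, had 15335.5, 20866 and 18165 normalised counts in NK cells and 3.67, 66.2 and 502 in CD8+ T cells (log2 fold change 6.56 ± 1.54 SE, edgeR adjusted p = 0.0434), a call lost in 4 of the 6 fits without one library. The log2 fold change of *Serpinb9* was 6.01 to 8.998 in these fits, highest without CD8+ T cell library 3. *Serpinb9b* had 824, 1397 and 855 in NK cells and 0 in CD8+ T cells, at least 300.0-fold less (edgeR adjusted p = 0.00703), a call lost without any one NK cell library. The other two, *Serpinb6a* and *Serpinb6b*, had log2 fold changes of 1.94 and 1.22 and were not called. How far these related serpins share reads was not examined.

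Of the 4 transcription factors of cytotoxic lymphocytes, *Tbx21*, *Eomes* and *Prdm1* were called higher in NK cells. *Tbx21* encodes the T-box factor T-bet and had 39116, 32463 and 30014 normalised counts in NK cells and 0, 13.5 and 0 in CD8+ T cells (edgeR adjusted p = 0.00216). *Eomes*, its T-box relative, had 10768, 11089 and 9358 in NK cells and 1009, 429 and 1503 in CD8+ T cells (log2 fold change 3.41 ± 0.48 SE, edgeR adjusted p = 0.00807). *Prdm1*, which encodes the repressor Blimp-1, was at 3254, 3038 and 3717 in NK cells and at 0 in CD8+ T cells, at least 976-fold lower (edgeR adjusted p = 0.000924). *Runx3* had 14369, 9569 and 11286 in NK cells and 6498, 2391.5 and 6733 in CD8+ T cells, apart but not called (log2 fold change 1.17 ± 0.41 SE, edgeR adjusted p = 0.115). The calls of *Tbx21*, *Eomes*, *Prdm1*, *Cst7* and *Stx11* held in each fit without one library.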

How the data were processed

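The data were RNA-seq counts from 3 libraries each of CD8+ T cells and NK cells from spleens of *Tyk2*-/- mice. Per the labels, 500 pg of RNA entered cDNA amplification, and single-end reads of 50 bases were sequenced. The authors trimmed with Trimmomatic 0.32 and aligned to mm10 with STAR 2.7.1. In R 3.2.3 the authors counted, for each gene, the reads that had one alignment and lay in its exons, and these counts were deposited without normalisation. The use of strand is not given in the sources used here. Of 104 columns of values, 6 were used and 98 were not. Among the latter are 3 labelled as *WT* homeostatic CD8+ T cells, of which 2 samples are listed and which the column names do not tell apart. The running numbers of the columns used differ from the replicate numbers in the sample labels, so the libraries were numbered 1 to 3 within a cell type.

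Testing used edgeR 4.0.16 under R 4.3.3. The 6 libraries were normalised together by TMM, and normalised counts are counts scaled to the mean effective library size. The 14062 genes whose normalised counts averaged 10 or more were compared with the robust quasi-likelihood test and called at a Benjamini-Hochberg adjusted p below 0.05. Alternatives were RLE factors, total counts, the Wald test of DESeq2 1.42.0, no filter, a log2 fold change of at least 1, and leaving out each library in turn. The share of counts was tested with an exact permutation test in scipy 1.17.1. Intervals (exact binomial, 95%) and the floor of 3 counts cover counting error only, since molecules were not tagged here. In data simulated for this comparison over 14062 genes at the estimated dispersions, edgeR called 37 of 100 genes changed 16-fold. It called 8 of 100 changed 4-fold and 2 of 13862 unchanged ones. The changed genes were drawn at random from all genes tested, so these rates are not those of the granule genes in particular.

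Gene positions and transcript sequences were those of GENCODE M21 (GRCm38), and promoters those of RefSeq (GRCm38.p6). Named were *Tyk2*, the 10 granule genes, and of each list the genes called, at most 4, with any at 3 counts or fewer in all 6 libraries. Other names were added after their values were seen. The granule genes, lists and markers were chosen with earlier results of these data known. Results for some marker genes are not reported here.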

Additional observations from a re-analysis of the deposited data

How the results depend on the processing

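No paired analysis was possible because running column numbers are not the replicate numbers of the samples, so that nothing pairs an NK cell library with a CD8+ T cell library. Over all genes, edgeR made 877 calls toward NK cells and 723 toward CD8+ T cells (54.8% toward NK cells). With total counts the split was 751 to 1112 (40.3%). The median log2 fold change of all genes tested was then -0.27, against 0.10 with TMM. DESeq2 made 3729 calls, 2132 toward NK cells and 1597 toward CD8+ T cells. Leaving out one library gave 476 to 1946 calls, 236 to 1205 toward NK cells and 240 to 741 toward CD8+ T cells, with the low numbers without an NK cell library. Of the granule genes, 3 to 6 were called in these fits (3 to 6 toward NK cells), and 5 to 8 under the other alternatives. Of the lists of granule machinery, 5 to 10 genes were called without one library (5 to 10 toward NK cells, 0 to 1 toward CD8+ T cells), and 0 toward CD8+ T cells without the filter on low counts. Over the 10 granule genes and 10 alternatives, 76 of 100 results kept their direction and their side of the threshold, 14 lost a call and 4 gained one, for *Gzmb* and *Gzmm* with DESeq2 and without CD8+ T cell library 1. The remaining 6 changed sign without being called. The log2 fold change of *Gzmk* was -0.19 with total counts and -0.42 to 3.35 without one library, and that of *Lamp1* was -0.46 with total counts and -0.21 to 0.085 without one library. The cause was not tested. The share of counts without *Gzma* and *Gzmb* was 2.96% in NK cells, 2.36 percentage points above CD8+ T cells. Per-length levels scaled as TPM gave member sums of 97317 in NK cells and 10224 in CD8+ T cells, against 72224 and 5340 on the scale used above. The median coefficient of variation of the members in CD8+ T cells was 23.4% to 53.1% without one library. At the depth of these libraries, counts of 3 or fewer, as found for 4 granzymes besides *Gzmc* in some CD8+ T cell libraries, were read as not detectable.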
